A study of Ovis aries with 36 samples.

Results

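The pars tuberalis of 6 sexually active rams was compared with that of 6 rams that were not active (called inactive here), by RNA sequencing with 1 library per ram. These 12 libraries are those labelled as pars tuberalis, of 36 in a series that also sampled the hypothalamus and the pineal gland of the same animals. All 12 rams were adults of the Spanish sheep breed Rasa Aragonesa. Animals 1 to 6 were active and animals 7 to 12 inactive, so the replicates are different animals. The sources used here do not say how sexual activity was scored, nor the season and light regime. The series asks which genes differ with the sexual behaviour of rams, and the question here is which differ in the pars tuberalis.

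The pars tuberalis is the thin upper part of the anterior pituitary that wraps the stalk below the hypothalamus. Its cells carry melatonin receptors and read the length of the night from the pineal hormone melatonin. In seasonal breeders such as sheep they pass day length on by secreting thyrotropin, which acts on hypothalamic tanycytes, the ependymal cells that control local thyroid hormone and through it the reproductive axis. Which of the measured IDs encode these proteins is not stated here, because the deposited counts carry Ensembl sheep gene IDs alone. Of 26478 IDs, 0 matched the reference gene table used here. Genes therefore stand as IDs, named pathway lists and cell type markers were not used, and the tissue label was not checked. Tissue gene lists set apart by these libraries themselves are used below, but they rest on the labels and cannot check them.

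No gene differed between active and inactive rams past the threshold. The edgeR quasi-likelihood test on the 12 libraries called 0 of 15501 tested genes (0% called) at an adjusted p below 0.05, and the lowest p after Benjamini-Hochberg adjustment was 0.916. At an unadjusted p under 0.05 there were 419 genes (2.7%), 127 with the higher mean in active rams (0.819%) and 292 with the lower (1.88%). DESeq2 called 0 with 551 at an unadjusted p under 0.05, and limma voom called 0 with 385. Over 22 alternative settings the count of called genes was 0 each time, and the lowest adjusted p for any gene was 0.535, from DESeq2. The size of the lower-in-active excess moved with single rams, each left out in a new fit with its own list of such genes. Genes with the higher mean in active rams made up 30.3% of the 419. With each animal left out in turn the share ran from 24.0% (without animal 9) to 46.5% (without animal 3). Without animal 7 there were 162 genes with the higher and 200 with the lower mean in active rams, without animal 3 there were 164 and 189, and without animal 4 there were 123 and 169. In the other direction, there were 151 and 477 without animal 9 and 135 and 346 without animal 8. Levels are given in CPM, which are counts per 1000000 counts of a library, scaled by trimmed mean of M values. They are not corrected for gene length, so an order of genes by CPM is an order by counts.

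**Figure D1:**
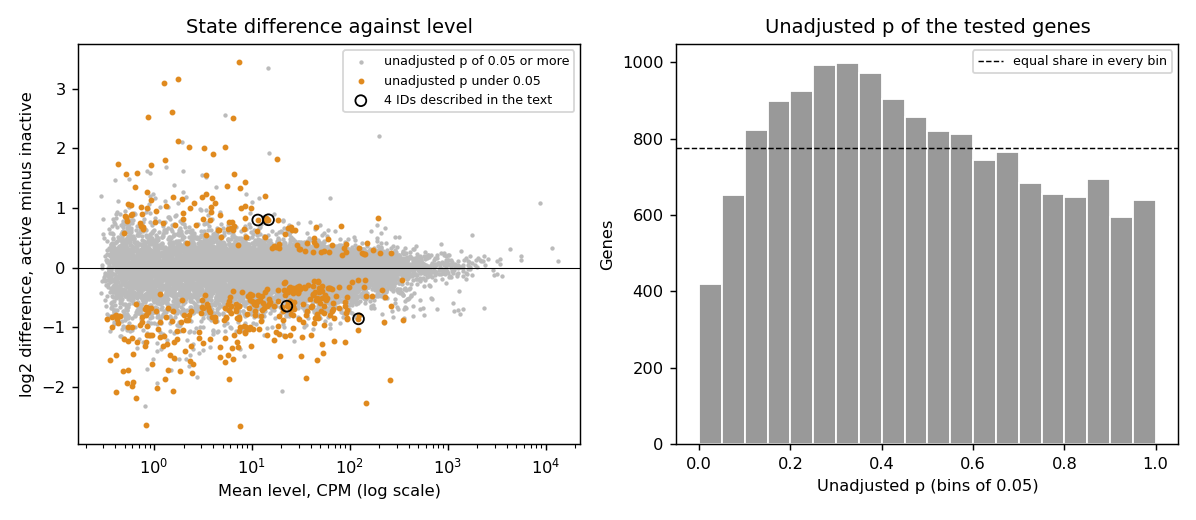
Left, log2 difference between states (active minus inactive) against the mean level of each of the 15501 tested genes in CPM on a log axis, with the 419 genes at an unadjusted p under 0.05 in orange and 4 described IDs circled. Right, number of genes in each bin of unadjusted p, where the first bin (419 genes) lies below the dashed line of equal shares.

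The fitted differences were small for most genes. Their median was -0.01 on the log2 scale, and the interquartile range ran from -0.17 to 0.13. A difference of at least 2-fold was fitted for 230 genes (1.48%), 75 higher and 155 lower in active rams. The 95% interval of the difference lay wholly within 2-fold in either direction in 12502 of 15490 genes (80.7%). The states did not overlap in 13 genes (0.0839%), 4 with every active ram above every inactive ram and 9 with the reverse. Among 15501 genes some part fully by chance, and the 13 were not tested against that number. In these 13 genes the fitted difference was between 0.14 and 0.82 on the log2 scale in size (median 0.40), and 9 of them averaged at least 10 CPM.

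The precision of the comparison depended on level. Among the 1190 genes with a mean under 1 CPM the median standard error (SE) of the log2 difference was 0.40, and the interval excluded a 2-fold difference in 32.0%. The median SE was 0.29 for 3670 genes at 1 to 10 CPM, 0.17 for 8274 at 10 to 100 CPM and 0.14 for 2290 at 100 to 1000 CPM. The interval lay within 2-fold for 64.2%, 91.4% and 93.8% of them. Among the 77 genes at 1000 CPM or more the median SE was 0.19 and the share 85.7%, so the class with the highest CPM was less precise than the class below it. In most genes under 1 CPM a 2-fold difference could thus not be excluded with 6 rams per state at this depth.

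The share of genes at an unadjusted p under 0.05, 2.7% over all genes, fell with level. The class under 1 CPM held 65 such genes (5.46%), that of 1 to 10 CPM 153 (4.17%), that of 10 to 100 CPM 175 (2.12%) and that of 100 to 1000 CPM 26 (1.14%). In the class of 1000 CPM or more 0 of 77 genes had such a p, and its median log2 difference was 0.04.

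Genes that mark the tissue by level against the hypothalamus and pineal gland were examined next. The 43 genes restricted to it have a median of 20 CPM or more there, which is 50 or more times the median in either other tissue. Of these, 1 (2.33%) had an unadjusted p under 0.05, against 2.7% of all tested genes. It had the lower mean in active rams, and 0 of the 43 were called. Their median log2 difference was 0.06 against -0.01 over all genes, with a range from -0.75 to 1.09. With each animal left out in turn that median ran from 0.011 (without animal 5) to 0.15 (without animal 6), and it was 0.14 by limma voom. A wider list held 549 genes called at least 4-fold higher in the pars tuberalis than in both other tissues, of which 543 could be tested between states. Of the 543, 22 (4.05%) had an unadjusted p under 0.05, against 2.7% of all tested genes. The higher mean was in active rams for 12 of the 22 and the lower for 10. Whether either list's share differs from that of all genes was not tested. Of the 543, 0 were called, and the median was 0.05 (0.025 without animal 12 to 0.11 without animal 1). The lists were defined from the same libraries, without use of state. In bulk tissue, fewer cells of a type and less RNA per cell cannot be told apart.

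The described IDs are, in each direction, those with the lowest p among genes averaging at least 10 CPM. ENSOARG00020020166 had a lowest, median and highest level of 10.0, 15.8 and 17.0 CPM in active rams. In inactive rams it had 5.07, 8.18 and 12.4 CPM. Of the active rams, 5 lay above every inactive ram, while animal 6 (10.0 CPM) lay below inactive animal 11 (12.4 CPM). The log2 difference was 0.80 (SE 0.20), with means of 14.6 ± 2.63 and 8.37 ± 2.36 CPM (SD, n = 6 each). In edgeR its unadjusted p was 0.00163 and its adjusted p 0.916.

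ENSOARG00020024443 had 10.6, 20.2 and 25.8 CPM as the lowest, median and highest active level. The inactive levels were 7.74, 9.73 and 15.6 CPM. The groups overlapped, with active animals 3 (13.1 CPM) and 5 (10.6 CPM) inside the inactive range and the other 4 active rams above it. The log2 difference was 0.80 (SE 0.25), with means of 18.7 ± 5.89 and 10.8 ± 3.25 CPM (SD, n = 6 each). Its adjusted p in edgeR was 0.916.

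In the other direction, ENSOARG00020024798 had 76.5, 80.2 and 116 CPM as the lowest, median and highest level of active rams. Inactive rams had 103, 132 and 299 CPM. Apart from animal 3 at 116 CPM, all active rams lay below all inactive ones, and the inactive maximum of 299 CPM belonged to animal 7, with the next at 175 CPM. The log2 difference was -0.86 (SE 0.24) with an adjusted p of 0.916 in edgeR, and it was -0.57 without animal 7. ENSOARG00020017838 had 13.7, 17.5 and 22.2 CPM in active rams. It had 18.9, 25.3 and 42.2 CPM in inactive rams, again with animal 7 highest. Inactive animal 9 (18.9 CPM) was the only inactive ram within the active range. The log2 difference was -0.65 (SE 0.19), the adjusted p in edgeR was 0.916, and the difference without animal 7 was -0.49.

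**Figure D2:**
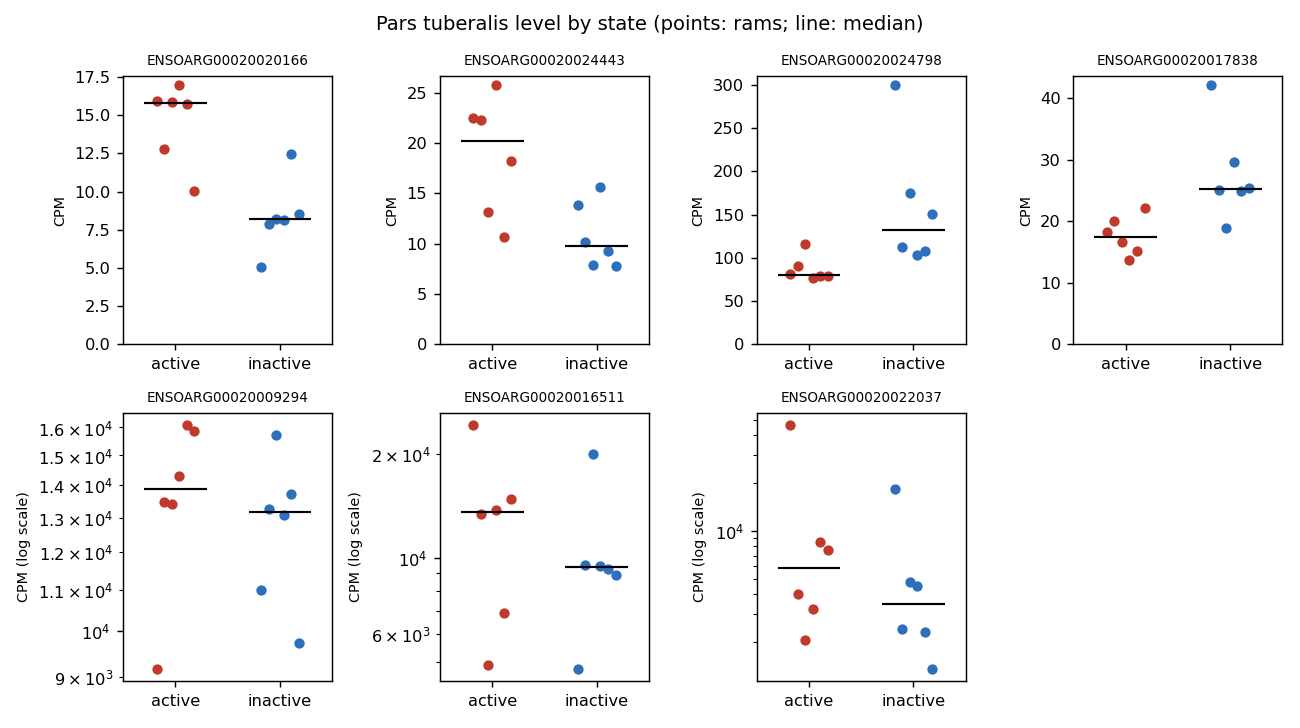
Level of 7 IDs in each of the 12 rams by state, in CPM, with a line at the median of 6 rams. The upper row has linear axes and holds the 4 IDs with the lowest p by direction, whose groups overlap by 1 to 3 rams on a side; the lower row has log axes and holds the 3 IDs with the highest mean CPM, where ENSOARG00020022037 is highest in active animal 1 (46589 CPM) and inactive animal 7 (18399 CPM).

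The 3 IDs with the highest mean CPM in the pars tuberalis are described whatever their state effect. ENSOARG00020009294 was the steadiest, at 9177, 13887 and 16102 CPM as the lowest, median and highest active level. Inactive rams had 9737, 13163 and 15739 CPM, nearly the same range. Its log2 difference was 0.11 (SE 0.16), with a 95% interval from -0.24 to 0.45 that excludes a 2-fold change. ENSOARG00020016511 had 4875, 13584 and 24252 CPM in active rams. It had 4767, 9372 and 19988 CPM in inactive rams, so that each state spanned a wide and shared range. Its log2 difference was 0.33 (SE 0.38, 95% interval -0.48 to 1.15), and it was 0.07 without animal 1 and 0.63 without animal 9.

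ENSOARG00020022037 varied most of the 3. Active rams had 2050, 5822 and 46589 CPM, and inactive rams 1360, 3469 and 18399 CPM. A single ram stood far above the rest in each state, animal 1 among the active (next 8520 CPM) and animal 7 among the inactive (next 4808 CPM). The log2 difference of 1.09 (SE 0.80, 95% interval -0.63 to 2.81) was -0.14 without animal 1 and 1.96 without animal 7. The adjusted p of ENSOARG00020009294 was 0.918 and that of ENSOARG00020016511 and ENSOARG00020022037 was 0.916, both in edgeR.

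Single rams stood far apart in this tissue. The first principal component of log2 CPM over the tested genes held 36.5% of the variance, with inactive animal 7 at a score of 101.6 and active animal 6 next at 33.0, and the remaining 10 rams between -39.6 and 8.77. Correlations of log2 CPM between libraries ran from 0.950 to 0.981 without animal 7, and from 0.900 to 0.953 between animal 7 and the others. Components 2 and 3 held 14.0% and 9.17%. Scores overlapped between the states on all 3 components, with exact permutation p values of 0.297, 0.617 and 0.509 in order.

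**Figure D3:**
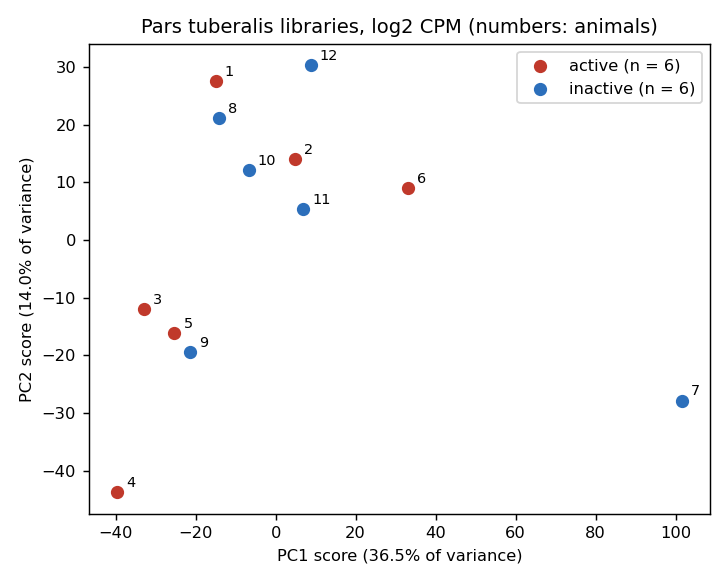
Scores of the 12 pars tuberalis libraries on the first (horizontal) and second (vertical) principal components of log2 CPM, active rams in red and inactive rams in blue, numbered by animal. Animal 7 lies apart at 101.6 on the first component, and the 2 states are mixed among the other rams.

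Among 14311 genes averaging at least 1 CPM, animal 7 held 234 at least 4-fold above and 109 at least 4-fold below the median of the other 11 rams. The other 11 libraries had 8 to 58 genes above and 10 to 78 below. The 234 genes had a median level of 80.2 CPM in animal 7 and of 21.7 CPM in animal 6, the next highest. The lowest such median was 10.7 CPM, in animal 4. The 109 genes had a median of 3.00 CPM in animal 7, of 11.0 CPM in animal 6, and of 15.1 to 21.4 CPM in the other 10 rams. In the first set animal 12 (20.7 CPM) was close to animal 6.

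Of the 234 genes high in animal 7, 63 (26.9%) had a hypothalamus median at least 4 times that of the pars tuberalis, against 7.23% of the 14311 genes. For the pineal gland it was 35 (15.0%) against 6.07%. Of the 109 genes low in animal 7, 23 (21.1%) had a hypothalamus median at least 4 times lower than that of the pars tuberalis, against 4.20% of the 14311. The 35 genes restricted to the hypothalamus stood at 0.486% of their hypothalamus level in animal 7, inside the range of 0.180% to 0.720% over the 12 rams. The 69 genes restricted to the pineal gland stood at 0.191% of their pineal level in animal 7, the highest of the 12 (lowest 0.0694%). Of the 234 genes, 50 (21.4%) had an unadjusted p under 0.05 between states, and of the 109 genes 0 did, against 354 (2.47%) of the 14311. As animal 7 is an inactive ram and chose these genes, the shares are a description. The 1 CPM filter took the mean over all 12 rams, so a gene low in the other 11 could pass through animal 7 alone. Such a gene has a low pars tuberalis median, which raises its ratio to the other tissues. The 14311 genes were not matched for this, and the shares were not taken for other rams. Left out alone or together with animal 6, animal 7 did not change the count of 0 called genes, and 362 and 763 genes then had an unadjusted p under 0.05. Without animal 6 alone the number was 822 (5.30%), 0 of them called by edgeR.

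**Figure D4:**
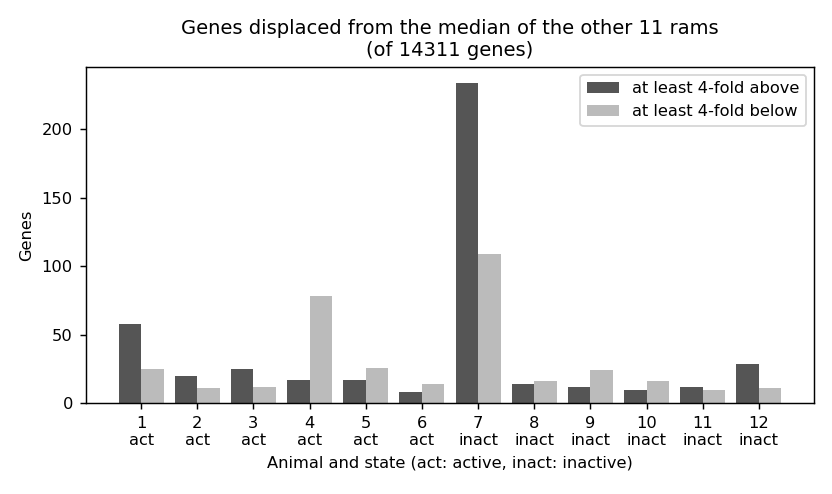
Bars give, for each of the 12 rams, the number of 14311 genes whose pars tuberalis level was at least 4-fold above (dark) or below (light) the median of the other 11 rams. Animal 7 has 234 above and 109 below, and the largest counts elsewhere are 58 above (animal 1) and 78 below (animal 4).

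Library measures were compared between states by exact two-sided permutation tests over the 12 animals, with Benjamini-Hochberg adjustment over 10 measures. Depth ran from 22.56 to 35.44 in units of 1000000 counts. In that unit the mean was 31.1 ± 3.54 for active rams and 26.8 ± 3.16 for inactive ones (SD, n = 6 each; exact permutation p = 0.0498, adjusted p = 0.498). Thinned to the lowest total, the libraries again gave 0 called genes, with 406 at an unadjusted p under 0.05. Genes with at least 10 counts numbered 15522 ± 185 and 15429 ± 201. The 10 genes with the most counts took 7.08 ± 1.95% of the counts in active and 5.97 ± 0.80% in inactive rams (exact permutation p = 0.236). That difference of 1.11 percentage points was 0.342 without animal 1. The level of the 43 restricted genes was 86.6% to 111% of their tissue median over the 12 rams (exact permutation p = 0.450 between states). The mean distance to the other libraries of the same state was 0.679 ± 0.0413 in active and 0.706 ± 0.147 in inactive rams, with animal 7 at 1.00. Distance is the root mean square difference in log2 CPM over genes (permutation p = 0.900). The distances use the state labels, were not recomputed for each permutation and depend on each other within a state. For distance the p is therefore not exact and does not test a difference in spread. Adjusted p was 0.848 or higher for every measure but depth.

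Whether a state effect in the pars tuberalis differed from that in the other tissues of the same rams was tested in a fit of all 36 libraries. Against the hypothalamus, edgeR called 0 of 16773 genes (0% called), with 690 (4.11%) at an unadjusted p under 0.05. Against the pineal gland it also called 0 (0% called), with 242 (1.44%). DESeq2 called 11 and 2 genes. The 11 against the hypothalamus are not described here. The 2 against the pineal gland, taken up only because DESeq2 called them, have few counts in at least 1 of the tissues compared. Their counts are given as sums over the 6 libraries of a group. ENSOARG00020015040 had 619 counts in active and 1009 in inactive pars tuberalis against 0 and 4 in the pineal gland. ENSOARG00020018777 had 5 and 3 in the pars tuberalis against 4 and 0, so it was near 0 in both tissues. In edgeR their unadjusted p values were 0.348 and 0.667 and the adjusted p was 1.00 for each.

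For the 4 described IDs with the lowest p by direction, values from that fit stand side by side, followed by the 3 with the highest mean CPM. ENSOARG00020020166 had a log2 difference of 0.80 (SE 0.48) in the pars tuberalis, 1.24 (SE 0.48) in the hypothalamus and -0.95 (SE 0.59) in the pineal gland, where its median was only 0.145 CPM. In the hypothalamus active animal 2 stood alone at 35.1 CPM, against 3.42 to 7.57 CPM in the other active and 2.32 to 5.96 CPM in the inactive rams. Without that library the hypothalamus difference was 0.27. In the pineal gland inactive animal 10 stood at 1.09 CPM, and without it the difference was -0.0023. ENSOARG00020024443 had 0.80 (SE 0.32), 0.81 (SE 0.32) and 0.07 (SE 0.31) in the same order. The same hypothalamus library held 25.5 CPM of it, against 3.49 to 8.57 CPM in the other active and 3.83 to 6.42 CPM in the inactive rams, and without it the hypothalamus difference was 0.15. ENSOARG00020024798 had -0.87 (SE 0.30), -0.23 (SE 0.30) and -0.25 (SE 0.29), and ENSOARG00020017838 had -0.65 (SE 0.22), -0.63 (SE 0.22) and -0.06 (SE 0.22). Without the hypothalamus library of animal 2, their hypothalamus differences were -0.09 and -0.67 in turn. The same rams underlie the 3 tissues, so these are not independent. Of the 3 IDs with the highest mean CPM, ENSOARG00020016511 had 0.34 (SE 0.987), 4.28 (SE 1.1997) and 3.33 (SE 1.203) in the same order. Its median was only 2.14 CPM in the hypothalamus and 0.182 CPM in the pineal gland. In the hypothalamus active rams ran from 0 CPM (animal 2) to 50.5 CPM (animal 6), and inactive rams from 0 to 2.46 CPM. In the pineal gland active animals 4 and 6 stood at 16.3 and 6.02 CPM. The other active rams had 0.116 to 0.662 CPM there and the inactive rams 0 to 2.07 CPM. In edgeR the adjusted p of its hypothalamus difference was 0.146, and its pineal difference was not called. For the difference of ENSOARG00020016511 between pars tuberalis and hypothalamus, edgeR's unadjusted p was 0.0142. ENSOARG00020009294 had 0.11, 0.45 and -0.12, and ENSOARG00020022037 had 1.07, 1.499 and 0.49. The difference between tissues was not called for any of the 7 described IDs, where edgeR's adjusted p was 0.995 or higher.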

How the data were processed

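The deposited values are raw read counts for each gene ID, whole and without normalisation by the authors. Per the labels' protocols, libraries were stranded messenger RNA libraries with unique molecular identifiers, read from both ends on an Illumina NovaSeq. The tools named, per the submitters' processing notes, are FastQC, STAR 2.7.8a, HTSeq and edgeR, with no roles. Genome build, annotation, strand setting, handling of multi-mapping reads and use of the identifiers are not stated in these sources, so near-identical or overlapping genes are uncertain. Batches are not given either.

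Counts of the 12 pars tuberalis libraries were fitted with edgeR 4.0.16 under R 4.3.3 (minimum count 10, trimmed mean of M values, robust quasi-likelihood fit, 10 residual degrees of freedom). Of 26478 IDs, 15501 were tested and 10977 removed, 5161 of them without a count in this tissue. SE is the absolute log2 difference over the square root of F. Calls used a Benjamini-Hochberg adjusted p below 0.05. DESeq2 1.42.0 and limma 3.58.1 were alternatives. Principal components used log2 CPM with a prior count of 2. Displaced genes were found after adding 0.5 CPM. The script was tested on simulated data. Chi-square per degree of freedom was at least 27.3 in all 66 pairs of the 12 libraries, so no library copied another.

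The 36-library fit of 16773 genes had 1 mean per group. The 3 libraries of a ram share its number, which pairs the tissues. Deviations from the group mean correlated within animals at a median of 0.0607 between pars tuberalis and hypothalamus and 0.204 between pars tuberalis and pineal gland.

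Described IDs were, in each direction, the 2 calls of lowest p or, with no call, the 2 of lowest p among genes averaging at least 10 CPM, and the 3 with the highest mean. Comparison, lists and rules were chosen with earlier results of these data known. Leaving out animals 6 and 7 together, voom with library weights, and leaving out the hypothalamus library of animal 2 or the pineal library of animal 10 were chosen after seeing the data.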

Additional observations from a re-analysis of the deposited data

Results flagged for a closer look

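There were 34 groups of 6 rams (7 described IDs and 10 library measures in each state). In each, the gap of the highest or lowest ram to its nearest neighbour, divided by the range, was compared with Dixon's 95% critical value. Chance passes about 1 in 20 groups if values are normally distributed. Here CPM were not log-transformed, the IDs were chosen by these same values, and measures of the same libraries are not independent. The number of groups passing is thus not a measure of excess over chance. In 9 groups a ram lay beyond it. Animal 7 among the inactive rams accounted for 4, with ENSOARG00020024798 at 299 CPM (nearest 175), ENSOARG00020022037 at 18399 CPM (nearest 4808), a first component score of 101.6 (nearest 8.77) and a mean distance of 1.00 to the other inactive libraries (nearest 0.697). Animal 1 among the active rams accounted for 3, with ENSOARG00020022037 at 46589 CPM (nearest 8520), 10.9% of counts in the 10 genes with the most counts (nearest 7.19) and a score of -51.5 on component 3 (nearest -5.25). ENSOARG00020024798 stood at 116 CPM in active animal 3 (nearest 90.0), and ENSOARG00020016511 at 19988 CPM in inactive animal 9 (nearest 9512).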

How the results depend on the processing

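The count of 0 genes called by state held under all 22 alternatives. The number at an unadjusted p under 0.05 (419) ran from 292 to 822 with each animal left out in turn. It was 735 of 21317 genes without the low-count filter, 763 without animals 6 and 7 and 958 by voom with library weights, which gave animal 7 a weight of 0.120 and animal 6 one of 0.434. No described ID was called under any alternative. ENSOARG00020016511 had a log2 difference of -0.0521 by voom with library weights, and ENSOARG00020022037 ran from -0.14 to 1.96 with each animal left out. The other 5 described IDs kept their direction under all 22. Without the pineal library of animal 10, left out after the data were seen, the pineal difference of ENSOARG00020017838 was 0.10 in place of -0.06. Genes with at least 10 counts were 93 more in active rams as deposited and differed by -68.5 at equal depth. With each animal left out, differences between states (active minus inactive) that changed sign ran from -13.5 to 0.877 for component 2, -13.4 to 0.299 for component 3, -0.0452 to 0.0322 for distance, -0.287 to 0.113 for the log2 level of hypothalamus genes and -0.231 to 0.0335 for that of pineal genes. None of the 10 measures passed an adjusted p of 0.05 under any alternative run. The cause of these changes was not tested.

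For the differences between tissues in the effect of state, the replicate block (animal) gave 0 called genes against the hypothalamus (574 at an unadjusted p under 0.05) and 0 against the pineal gland (191). DESeq2 called 11 and 2. Every other alternative gave 0. The state comparison within the pars tuberalis sets different animals against each other and takes no block.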

Other observations

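Some genes of the pars tuberalis had a wide gap in level between a lower and a higher set of rams. The rule, chosen after seeing the data, asks for a gap of at least 8-fold (after adding 0.5 CPM) between neighbouring rams, with at least 2 rams on each side. It found 7 of 14311 genes averaging at least 1 CPM. The set of rams above the gap held both states in each of the 7 genes. There are 6 rams per state, so any set of 7 or more rams holds both. Only for ENSOARG00020025090, with 5 rams above the gap, was this not fixed in advance. The smaller set, above or below the gap, held both states in each gene, which was not tested against chance. Between states 0 of the 7 genes had an unadjusted p under 0.05, against 354 (2.47%) of the 14311. With so few genes, and a gap that widens the spread within each state, this 0 says little about state. For 2 of the 7 the same rams lay above a gap of this size in the hypothalamus and the pineal gland too.

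ENSOARG00020025090 had the widest gap, 41.9-fold. It stood at 60.6 and 67.2 CPM in active animals 4 and 5 and at 35.9, 59.5 and 37.6 CPM in inactive animals 7, 8 and 10. The other 7 rams had 0.168 to 0.369 CPM. In the hypothalamus and pineal gland the gene was low in all 12 rams, at no more than 3.12 and 0.328 CPM, and the hypothalamus maximum belonged to animal 2, which had 0.358 CPM in the pars tuberalis.

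ENSOARG00020014240 was low in the pars tuberalis of animals 5, 8 and 9, at 0.608, 0.415 and 0.317 CPM, and stood at 16.4 to 61.5 CPM in the other 9 rams. In the hypothalamus the same 3 animals had 0.577, 0.259 and 0.527 CPM against 15.2 to 70.6 CPM. In the pineal gland they had 0.455, 0.239 and 0.242 CPM against 7.85 to 41.0 CPM. ENSOARG00020006104 was low in animals 5, 9 and 10, at 5.53, 4.40 and 6.77 CPM in the pars tuberalis against 76.2 to 177 CPM in the other 9 rams. In the hypothalamus these 3 had 3.33, 3.58 and 2.37 CPM against 50.6 to 122 CPM, and in the pineal gland 2.40, 2.29 and 2.10 CPM against 29.6 to 76.9 CPM. Animals 5 and 9, 1 active and 1 inactive, were low for both genes in all 3 tissues. Levels of the other tissues were scaled over all 36 libraries and those of the pars tuberalis over its 12.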
